A study of Rattus norvegicus with 6 samples.

Results

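Liver sinusoidal endothelial cells line the capillaries of the liver lobule, and 9 genes known as their markers are described here across the 6 libraries of a rat liver study. The 9 were taken from the deposited table by gene symbol: the scavenger receptors Stab1, Stab2, Lyve1 and Mrc1, the C-type lectins Clec4g and Clec1b, the secreted or luminal proteins F8 and Oit3, and the transcription factor Gata4. Each symbol matched 1 row of the 32623 genes in the table, and all 9 had enough counts to be among the 14499 genes tested. RNA came from liver of Rattus norvegicus. The HCC group (hepatocellular carcinoma, 3 libraries) was left untreated and served as the control, and the TAE group (3 libraries) underwent transarterial embolization, in which the arteries feeding a liver tumour are blocked. The labels give no strain, sex, age, tumour model, embolic agent or time after the procedure, and do not say whether the tissue was tumour or the liver around it. They call the replicates biosamples and leave unsaid whether these were different animals, so the tests weigh differences against a spread between samples that may be technical.

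Sinusoidal endothelium differs from other capillary endothelium in having open pores and no organised basement membrane, and it clears macromolecules from blood through scavenger receptors. Stabilin-2 and LYVE-1 bind hyaluronan and the mannose receptor takes up mannose-rich glycoproteins and collagen fragments. GATA4 is a transcription factor that specifies this vessel type during development, and in chronic injury the cells can lose their pores and gain features of continuous endothelium such as CD34, a change called capillarization. Several of the 9 are not restricted to these cells: macrophages also express Mrc1, Stab1 and Lyve1, lymphatic endothelium expresses Lyve1, platelets carry Clec1b, and hepatic stellate cells and mesothelium express Gata4.

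Total counts were 13448286 to 16604067 per library. Agreement between libraries was higher within HCC than within TAE. On log2 CPM (counts scaled to library size), Pearson correlations across genes ran from 0.984 to 0.991 among HCC libraries and from 0.935 to 0.969 among TAE libraries, genes not being independent replicates. TAE replicate 2 stood about as close to the HCC libraries (0.967 to 0.969) as to TAE replicate 1 (0.969), and farther from TAE replicate 3 (0.935). Hepatocyte markers, which check the labelled tissue, were abundant in every library. Their summed level over 10 genes was 23362 to 28896 FPKM (fragments normalised for exon length and sequencing depth) in HCC and 13712, 10238 and 30201 FPKM in TAE replicates 1, 2 and 3. Whether a lower level in bulk tissue comes from fewer cells of a type or from less RNA per cell cannot be told apart in these data.

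None of the 9 genes passed an adjusted p of 0.05 for TAE against HCC (edgeR's quasi-likelihood test with Benjamini-Hochberg adjustment), where 3.01% of all tested genes passed. Of the 9, 3 had an unadjusted p under 0.05 in edgeR, beside 22.7% of all genes, and DESeq2 called 2 of them, Stab1 and Mrc1, beside 12.2% of all genes. The median log2 change of the 9 was 0.51, beside -0.03 over all tested genes. In 3 of the 9, Stab1, Mrc1 and F8, the FPKM values of every TAE library lay above those of every HCC library, and no member lay wholly below; over all tested genes 21.9% lay wholly above and 5.54% wholly below. On log2 CPM 3 of the 9 again lay wholly above and none below, where 18.6% of all tested genes lay wholly above and 13.4% wholly below. The other 6 overlapped between the groups. The 9 genes did not share 1 pattern. In FPKM all 9 were above every HCC library in TAE replicate 3. In TAE replicate 2, by contrast, 3 were above and 5 below every HCC library, and in TAE replicate 1, 5 were above and 2 below. On log2 CPM Gata4 in TAE replicate 2 was also below every HCC library, at 3.69 against 3.78 in HCC replicate 3. Shares of all tested genes were not taken for single TAE libraries, so these counts describe the 9 genes only.

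**Figure D1:**
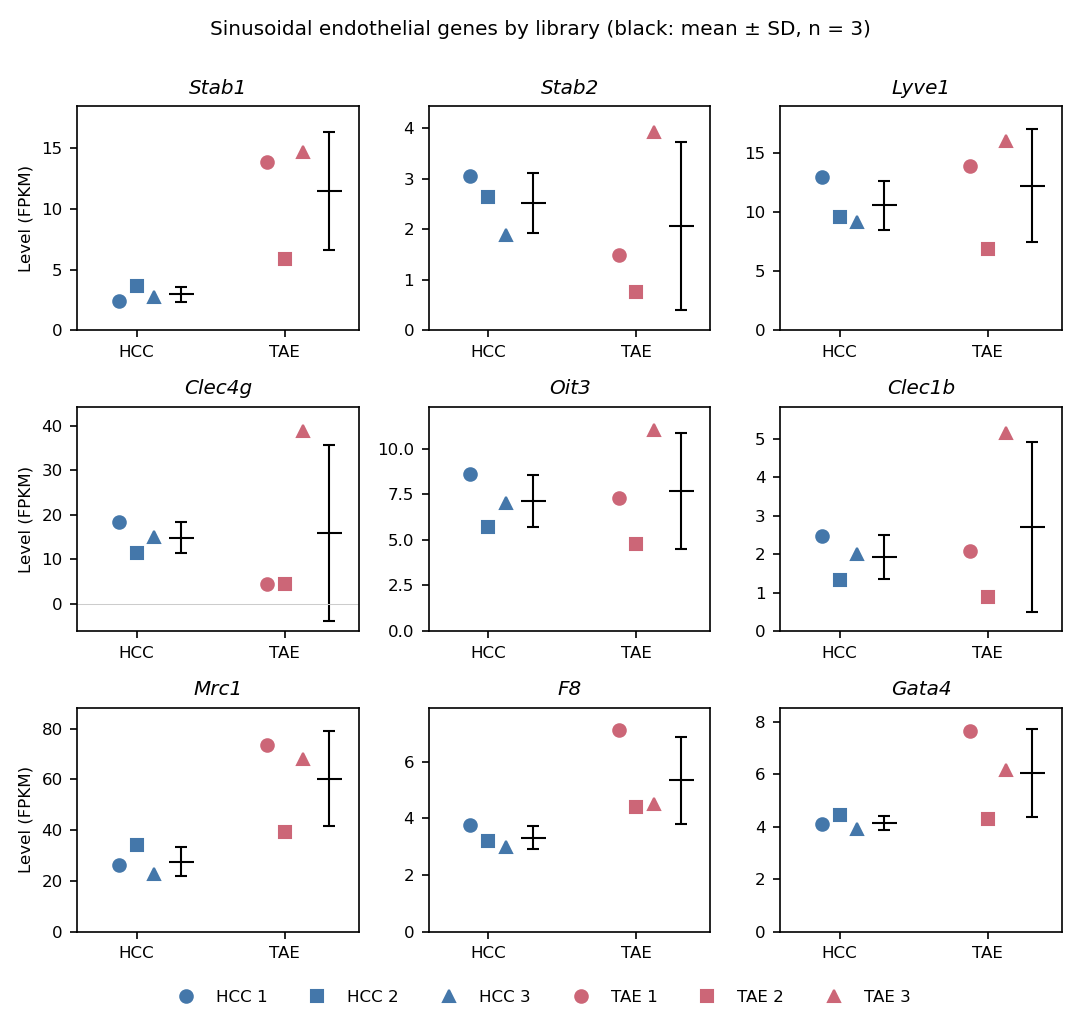
Level (FPKM, vertical axes starting at or below 0) of each of the 9 genes in the 3 HCC libraries (blue) and the 3 TAE libraries (red), with circles, squares and triangles for replicates 1, 2 and 3 and the mean ± SD in black. Stab1, Mrc1 and F8 have TAE values that all lie above the HCC values, and for Clec4g TAE replicate 3 stands at 38.8 FPKM while the other TAE libraries are near 4.4.

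In the untreated HCC libraries Mrc1 was the most abundant per length, at 27.6 ± 5.83 FPKM (mean ± SD, n = 3). Clec4g followed at 14.8 ± 3.48 and Lyve1 at 10.6 ± 2.05 FPKM, and their libraries overlapped with each other but not with those of Mrc1. Oit3 stood at 7.11 ± 1.43 FPKM and Gata4 at 4.15 ± 0.260 FPKM, each apart from its neighbours in this order. F8 (3.32 ± 0.406 FPKM), Stab1 (2.96 ± 0.650), Stab2 (2.52 ± 0.589) and Clec1b (1.93 ± 0.578) overlapped with their neighbours in the order and were below Gata4. In TAE the order of means was Mrc1, Clec4g, Lyve1, Stab1, Oit3, Gata4, F8, Clec1b and Stab2. There Mrc1 alone stood apart from its neighbour, by 39.1 FPKM in its lowest library against 38.8 in the highest of Clec4g. Stab1 thus had the seventh highest mean of the 9 in HCC and the fourth highest in TAE.

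The pair of stabilins, large scavenging receptors encoded by related genes, differed from each other in pattern. Stab1 (gene ENSRNOG00000018434, chromosome 16, 7222067 to 7250924, minus strand, 7059 exonic bases) was measured at 2.42, 3.68 and 2.77 FPKM in HCC replicates 1 to 3 and at 13.9, 5.90 and 14.7 FPKM in TAE replicates 1 to 3. Every TAE library was above every HCC library, with TAE replicate 2 the nearest to them. Its mean was 2.96 ± 0.650 FPKM in HCC against 11.5 ± 4.86 in TAE, and its log2 change of 1.95 ± 0.41 (SE) missed the threshold (edgeR adjusted p = 0.0516, with a range of 2.2e-18 to 0.228 over 21 alternative settings, of which 14 called it). With 3 libraries against 3, an exact two-sided permutation test of a single gene cannot go below p = 0.10.

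Stab2 (gene ENSRNOG00000038948, chromosome 7, 27369853 to 27552078, minus strand, 7605 exonic bases) was measured at 3.04, 2.64 and 1.88 FPKM in HCC and at 1.49, 0.75 and 3.92 FPKM in TAE replicates 1 to 3. TAE replicates 1 and 2 were below every HCC library and TAE replicate 3 above every one. The mean was 2.52 ± 0.589 FPKM in HCC and 2.05 ± 1.66 in TAE, and the log2 change of -0.25 ± 0.61 was smaller than its standard error (edgeR adjusted p = 0.819). Without TAE replicate 3 the log2 change was -1.28 (edgeR adjusted p = 0.072), where DESeq2 called Stab2 lower at -1.30 (adjusted p = 0.0031), and without TAE replicate 2 it was 0.18. Within the TAE libraries Stab2 spanned 5.23-fold from lowest to highest, against 1.62-fold within HCC, while Stab1 spanned 2.49-fold within TAE. The promoters of the stabilins, 250 bases before to 50 after the start site, are shown because the related genes differed in pattern (RefSeq, GRCr8, 5′ to 3′ on the gene's strand). No letters are in capitals, since neither window holds AGATAA or TGATAA on either strand, the only letters searched, as described with the lectins.
Stab1 promoter, chr16:6367310-6367609, minus strand: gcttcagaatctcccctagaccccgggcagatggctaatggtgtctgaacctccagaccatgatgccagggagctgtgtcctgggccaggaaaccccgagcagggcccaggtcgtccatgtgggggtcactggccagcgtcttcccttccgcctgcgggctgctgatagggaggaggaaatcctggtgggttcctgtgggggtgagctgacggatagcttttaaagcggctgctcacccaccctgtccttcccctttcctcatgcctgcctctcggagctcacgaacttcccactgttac
Stab2 promoter, chr7:23320513-23320812, minus strand: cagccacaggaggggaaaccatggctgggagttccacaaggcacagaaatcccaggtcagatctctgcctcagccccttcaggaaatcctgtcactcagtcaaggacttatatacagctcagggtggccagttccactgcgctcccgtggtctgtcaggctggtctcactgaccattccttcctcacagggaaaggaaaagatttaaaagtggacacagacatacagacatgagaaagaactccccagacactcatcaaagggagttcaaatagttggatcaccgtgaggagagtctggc

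Mrc1, the mannose receptor of sinusoidal endothelium and of macrophages (gene ENSRNOG00000018251, chromosome 17, 81352700 to 81433743, plus strand), was measured at 26.1, 34.0 and 22.6 FPKM in HCC and at 73.7, 39.1 and 68.2 FPKM in TAE replicates 1 to 3. The groups did not overlap, and TAE replicate 2 was closer to HCC replicate 2 than to the other TAE libraries. On log2 CPM these 2 libraries were almost level, at 7.504 in TAE replicate 2 and 7.501 in HCC replicate 2. The TAE mean was 60.3 ± 18.6 FPKM, and the log2 change of 1.11 ± 0.31 did not pass (edgeR adjusted p = 0.0992). Without TAE replicate 2 it passed at a log2 change of 1.39 (edgeR adjusted p = 0.0064), as did Stab1, F8 and Gata4, when 24.2% of all genes passed. Lyve1, a hyaluronan receptor shared with lymphatic vessels (gene ENSRNOG00000026902, chromosome 1, 175663266 to 175676699, minus strand), was measured at 12.9, 9.58 and 9.20 FPKM in HCC and at 13.9, 6.87 and 16.0 FPKM in TAE. TAE replicate 2 was the lowest of the 6 libraries and TAE replicate 3 the highest. The log2 change was 0.21 ± 0.36 (edgeR adjusted p = 0.741) and turned to -0.13 without TAE replicate 3.

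Some macrophage markers were higher in every TAE library, as Stab1 and Mrc1 were, and others were not. The summed level of 11 macrophage and Kupffer cell markers was 1404 to 1624 FPKM in HCC and 3600 to 5178 FPKM in TAE, and 4 of them rose (Cd68, Csf1r, Msr1 and Lyz2), where 2.7% of all tested genes rose, while none fell. Most of that sum was Lyz2, and without it the other 10 summed to 622 to 729 FPKM in HCC and to 1024, 810 and 1825 FPKM in TAE replicates 1 to 3. Of the 11 log2 changes, 7 were positive and 4 negative. Every TAE library lay above every HCC library for 6 of the 11, both in FPKM and on log2 CPM. Over all tested genes these shares were 21.9% and 18.6%. The part of macrophages in the levels of Stab1 and Mrc1 was not tested. Csf1r, the receptor for macrophage growth factors, rose with a log2 change of 1.18 ± 0.23 and Cd68, a lysosomal protein, with 1.70 ± 0.31. Msr1, a scavenger receptor, rose by 1.67 ± 0.32 and Lyz2, the myeloid lysozyme, by 1.97 ± 0.23. In edgeR these 4 calls were lost without TAE replicate 1 and without any 1 HCC library, when at most 1 gene of all those tested passed, and that of Csf1r also at a mean count of at least 50 (edgeR adjusted p = 0.0513). Clec4f, a lectin of resident Kupffer cells, overlapped between the groups: it was 88.0, 63.4 and 68.9 FPKM in HCC and 42.2, 35.9 and 89.8 FPKM in TAE. TAE replicates 1 and 2 were thus below the HCC range and TAE replicate 3 above it, as for Stab2. The scavenger receptors Cd163 and Marco and the macrophage-secreted Cd5l also overlapped, with log2 changes of -0.10, -0.05 and -0.13.

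The lectin Clec4g, also known as LSECtin, varied most among the TAE libraries. It (gene ENSRNOG00000054013, chromosome 12, 2273941 to 2277169, minus strand, 834 exonic bases) was measured at 18.3, 11.3 and 14.9 FPKM in HCC and at 4.37, 4.48 and 38.8 FPKM in TAE replicates 1 to 3. TAE replicates 1 and 2 were below every HCC library and TAE replicate 3 above every one, an 8.87-fold span within TAE against 1.61-fold within HCC. The means of 14.8 ± 3.48 FPKM in HCC and 15.9 ± 19.8 in TAE were close, and the log2 change of 0.18 ± 0.88 was smaller than its standard error (edgeR adjusted p = 0.913). Its sign depended on the scale: on log2(FPKM + 0.1), where each library counts alike, the difference was -0.66 (limma adjusted p = 0.665). Without TAE replicate 3 Clec4g fell with a log2 change of -1.87 (edgeR adjusted p = 0.0152), when 8.33% of all genes passed in either direction.

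Clec1b, which encodes CLEC-2, the podoplanin receptor of platelets and liver myeloid and sinusoidal cells (gene ENSRNOG00000057335, chromosome 4, 163162211 to 163170466, plus strand), was the least abundant member in HCC, with 17 to 34 counts per library there and 14 to 82 in TAE. It was measured at 2.47, 1.32 and 1.99 FPKM in HCC and at 2.08, 0.88 and 5.16 FPKM in TAE replicates 1 to 3. TAE replicate 3 was the highest and TAE replicate 2 the lowest of the 6 libraries, and the log2 change of 0.52 ± 0.68 was smaller than its standard error (edgeR adjusted p = 0.653). It turned to -0.50 without TAE replicate 3. Of 8 platelet and megakaryocyte markers, Ppbp, Gp9, Gp1ba, Gp1bb and Gp6 had too few counts to be tested and stood at 0 to 0.35 FPKM in every library. Pf4, a chemokine of platelets that macrophages can also express, stood at 8.76 ± 2.99 FPKM in HCC and rose to 47.5 ± 17.6 FPKM, by 2.40 ± 0.40 on the log2 scale (edgeR adjusted p = 0.0394). The Pf4 call was lost in edgeR without TAE replicate 1 or any 1 HCC library, when at most 1 gene of all those tested passed. Itga2b, the platelet integrin chain, stood at 4.88, 4.05 and 2.97 FPKM in HCC and at 2.43, 1.92 and 6.89 FPKM in TAE. The summed level of the 8 markers was 15.4 to 21.5 FPKM in HCC and 37.8 to 78.8 FPKM in TAE. Without Pf4 the other 7 summed to 7.86 to 11.2 FPKM in HCC and to 13.97, 8.23 and 13.93 FPKM in TAE replicates 1 to 3, so the groups overlapped. Their part in the level of Clec1b was not tested.

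The promoters of the lectins are shown because Gata4 is a member and its letters were searched in the promoters of the others. The search took AGATAA or TGATAA on either strand. It left out the related forms AGATAG and TGATAG, so windows without a match may hold those. RefSeq windows (GRCr8) were matched for 7 of the 9 genes. Of these 7, Clec1b alone held a match, 1 AGATAA that begins 122 bases before the start site, in capitals. Of all 33469 promoter windows of the same length, 18.9% held at least 1 match. A match is a description of letters and not a binding site.
Clec4g promoter, chr12:6582864-6583163, minus strand: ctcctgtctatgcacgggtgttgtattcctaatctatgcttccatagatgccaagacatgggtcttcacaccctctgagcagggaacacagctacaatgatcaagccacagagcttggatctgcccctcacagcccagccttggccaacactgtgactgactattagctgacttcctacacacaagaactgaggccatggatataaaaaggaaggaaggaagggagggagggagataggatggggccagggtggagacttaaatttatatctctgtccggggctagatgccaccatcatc
Clec1b promoter, chr4:164533859-164534158, plus strand: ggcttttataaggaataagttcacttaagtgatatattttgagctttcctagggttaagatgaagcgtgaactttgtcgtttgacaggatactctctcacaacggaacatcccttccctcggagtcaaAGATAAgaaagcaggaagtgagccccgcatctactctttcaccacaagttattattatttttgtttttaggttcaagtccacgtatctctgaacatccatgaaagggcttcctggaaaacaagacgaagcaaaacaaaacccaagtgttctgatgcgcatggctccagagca

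Among the remaining members, F8, coagulation factor VIII, which in liver is made by endothelium (gene ENSRNOG00000031197, chromosome 18, 367862 to 399242, minus strand), was measured at 3.77, 3.21 and 2.98 FPKM in HCC and at 7.12, 4.40 and 4.52 FPKM in TAE replicates 1 to 3. The groups did not overlap and TAE replicate 1 was the highest. The log2 change was 0.64 ± 0.22 (edgeR adjusted p = 0.147), and without TAE replicate 2 it was 0.81 and passed (edgeR adjusted p = 0.0205). Oit3, a secreted protein with a zona pellucida domain that marks sinusoidal endothelium (gene ENSRNOG00000046365, chromosome 20, 29009330 to 29029905, minus strand), was measured at 8.58, 5.72 and 7.02 FPKM in HCC and at 7.27, 4.75 and 11.0 FPKM in TAE. TAE replicate 1 lay within the HCC range, replicate 2 below and replicate 3 above it. The log2 change was 0.11 ± 0.38 (edgeR adjusted p = 0.870) and -0.35 without TAE replicate 3.

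Gata4, the transcription factor (gene ENSRNOG00000010708, chromosome 15, 46386712 to 46432965, minus strand), was the steadiest member in HCC, at 4.09, 4.43 and 3.92 FPKM. In TAE it was 7.64, 4.30 and 6.16 FPKM, so that replicates 1 and 3 were above the HCC range and replicate 2 within it. On log2 CPM replicate 2 was below the HCC range. The log2 change was 0.51 ± 0.26 (edgeR adjusted p = 0.286), and without TAE replicate 2 it was 0.75 and passed (edgeR adjusted p = 0.0148). Stellate cells are another known source of Gata4. The summed level of 9 stellate cell markers was 167 to 200 FPKM in HCC and 226 to 444 FPKM in TAE. None of the 9 passed in edgeR, beside 3.01% of all tested genes. DESeq2 called 4 higher, beside 12.2% of all genes in either direction. An unadjusted p was under 0.05 in edgeR for 4, beside 22.7% of all genes. Wt1, a mesothelial transcription factor, stood at 0.66 to 1.31 FPKM in HCC and 2.51 to 8.26 FPKM in TAE (edgeR adjusted p = 0.0593), while Msln, mesothelin, stood at 3.60 to 5.64 and 5.03 to 12.6 FPKM. The other 2 mesothelial markers, Upk3b and Lrrn4, had too few counts to be tested. The part of these cells in the level of Gata4 was not tested.

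**Figure D2:**
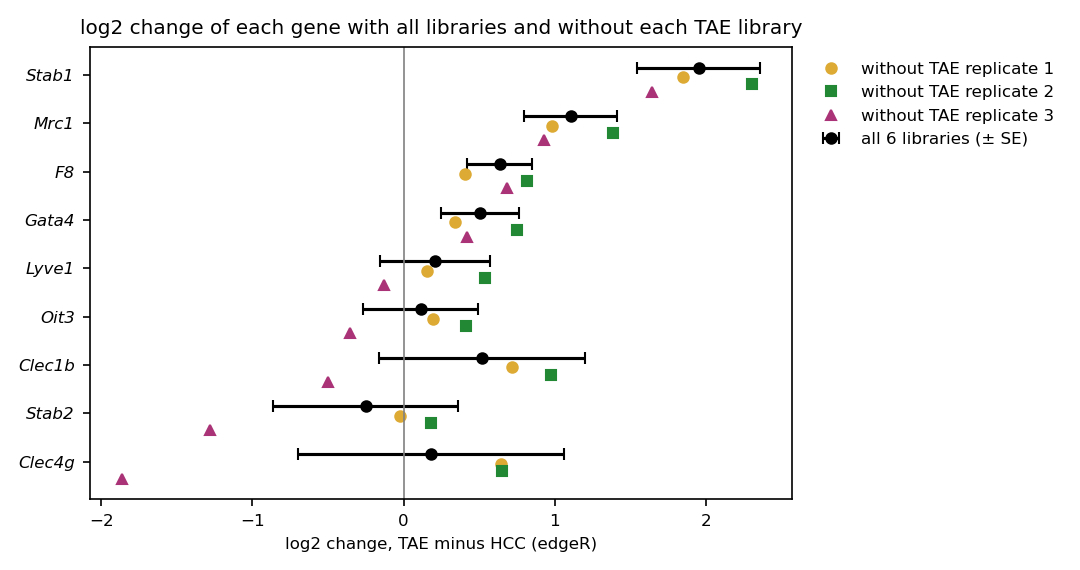
Log2 change (TAE minus HCC, edgeR, horizontal axis) of each gene with all 6 libraries (black, ± SE) and without each TAE library in turn (coloured symbols). Stab1, Mrc1, F8 and Gata4 stay above 0 in each, whereas Stab2, Clec4g, Clec1b, Oit3 and Lyve1 shift below 0 or further below it without TAE replicate 3.

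The distance between 2 genes was taken as the root mean square difference of their log2 CPM over the 6 libraries, each gene centred on its mean. By this measure Lyve1 and Oit3 (0.17) and F8 and Gata4 (0.19) were the closest pairs of members, and Stab1 and Clec4g (1.58) the farthest apart. Stab1 was nearer to Mrc1 (0.43) than to Stab2 (1.32), and Stab2 was nearest to Clec1b (0.50). Among 11705 other genes with a mean of at least 1 FPKM, the nearest to Clec4g was Marco at 0.19, a scavenger receptor of resident macrophages. Marco was measured at 49.9, 31.9 and 34.5 FPKM in HCC and at 13.7, 12.6 and 80.5 FPKM in TAE. Next to Clec4g came Glyatl2 (0.29), an acyltransferase. Nearest to Stab2 were Rapgef4 (0.15), an exchange factor for Rap GTPases that responds to cyclic AMP, a row named U6 (0.18), which is a small nuclear RNA with many copies and uncertain as a single gene, and Adra1b (0.19), an adrenergic receptor of hepatocytes. Nearest to Mrc1 were Kit (0.08), a receptor tyrosine kinase, Rgl1 (0.09) and Smim5 (0.09). Nearest to Stab1 were Cpz (0.08), a carboxypeptidase, Dcn (0.11), the matrix proteoglycan decorin of fibroblasts, and Sctr (0.12), the secretin receptor.

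Hepatocyte markers, like Stab2 and Clec4g, were on average low in TAE replicates 1 and 2 and high in TAE replicate 3. Averaged over 10 genes and set against the HCC mean, they stood at -0.94, -1.53 and 0.42 on the log2 CPM scale in TAE replicates 1, 2 and 3, where Stab2 stood at -0.81, -1.90 and 0.80 and Clec4g at -1.79, -1.86 and 1.54. None of the 10 passed in edgeR and none in DESeq2, beside 3.01% and 12.2% of all tested genes. An unadjusted p was under 0.05 in edgeR for 1 of the 10, beside 22.7% of all genes. Albumin (Alb) was 12096 to 15868 FPKM in HCC and 6948, 5318 and 15304 FPKM in TAE replicates 1 to 3, and the plasma protein genes Serpina1 and Ttr, with log2 changes of -0.59 and -0.85, did not pass either (edgeR adjusted p = 0.518 and 0.178). Ttr departed from the average in TAE replicate 3, where its 1415 FPKM was below its HCC range of 1791 to 1909 FPKM. Of the 10 markers Ttr alone lay wholly below HCC, in FPKM and on log2 CPM, beside 5.54% and 13.4% of all genes. Tf, transferrin, had a log2 change of -0.22 that was 0.10 without TAE replicate 2. Without TAE replicate 3, when Clec4g also fell, 7 of the 10 hepatocyte markers fell. In that fit 8.33% of all genes passed in either direction, and 517 of 14714 genes were lower. Among the 7 markers were Alb (-1.33, edgeR adjusted p = 0.0156), Serpina1 (-1.52, 0.0142), Ttr (-1.26, 0.0155) and Tf (-0.89, 0.0241). The part of hepatocyte content in the levels of the sinusoidal genes was not tested.

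**Figure D3:**
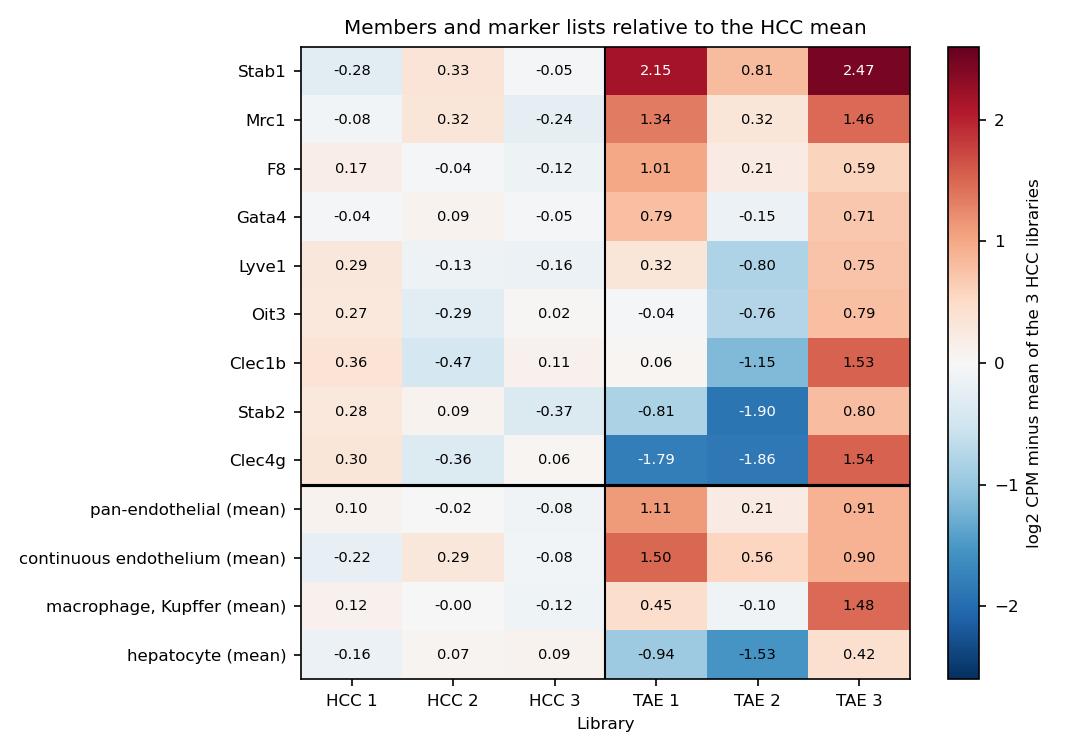
Level of each member (upper 9 rows) and mean level of 4 marker lists (lower 4 rows) in each library, as log2 CPM minus the mean of the 3 HCC libraries (colour and printed value). In TAE replicate 2 Stab2 and Clec4g stand at -1.90 and -1.86 while the pan-endothelial mean is 0.21, and in TAE replicate 3 every member is above 0.

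Genes expressed by endothelium in general were compared to ask whether the 9 stood with the other endothelial genes of the same library. Of 14 pan-endothelial markers tested, none passed in edgeR, 13 had positive log2 changes and the median was 0.83. In FPKM 9 lay wholly above HCC in TAE and none wholly below, beside 21.9% and 5.54% of all genes. On log2 CPM 7 lay wholly above and 1, Mmrn2, wholly below, beside 18.6% and 13.4%. An unadjusted p was under 0.05 for 9 of them, and DESeq2 called 6 higher, beside 22.7% and 12.2% of all genes. Their summed FPKM over 15 genes was 97.2 to 103 in HCC and 192, 126 and 145 in TAE replicates 1, 2 and 3. Cdh5, the VE-cadherin of endothelial junctions, was 14.3 to 16.2 FPKM in HCC and 17.4 to 30.7 FPKM in TAE, with a log2 change of 0.51 ± 0.21 (edgeR adjusted p = 0.207). Tie1, an endothelial receptor tyrosine kinase, was 5.92 to 7.50 and 11.9 to 23.7 FPKM, with a log2 change of 1.34 ± 0.27 (edgeR adjusted p = 0.0502). Eng, the coreceptor endoglin, and Egfl7, a factor secreted by endothelium, had log2 changes of 0.79 and 0.53, and Mmrn2, an endothelial matrix protein, one of -0.59, without passing.

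Relative to the mean log2 CPM of the 14 pan-endothelial markers, 6 of the 9 members were below every HCC library in both TAE replicates 1 and 2: Stab2, Lyve1, Clec4g, Oit3, Clec1b and Gata4. The same 6 were so with Cdh5 alone as the reference, though narrowly for Gata4. With Cdh5 it stood at -2.26 in TAE replicate 1, against -2.24 in HCC replicate 1, the lowest HCC library. The share of all genes that were so was not taken. The mean of the 14 markers itself stood at 1.11, 0.21 and 0.91 log2 units above its HCC mean in TAE replicates 1 to 3. A gene unchanged from HCC would therefore fall below the HCC libraries by about as much on this scale. Lyve1 and Gata4, for example, were above every HCC library in TAE replicate 1 before the marker mean was subtracted. These values are descriptions with no test. Stab2 stood at 0.70, 0.63 and 0.23 log2 units from the marker mean in HCC replicates 1 to 3 and at -1.40, -1.59 and 0.41 in TAE replicates 1 to 3. Clec4g stood at 0.10, -0.45 and 0.04 in HCC and at -3.00, -2.17 and 0.53 in TAE. In TAE replicate 3 both were thus above or within the HCC range. Lyve1 and Gata4 were below the HCC range in every TAE library, Lyve1 with a mean difference of -0.65 and Gata4 with one of -0.29. With Cdh5 alone as reference, however, both were above the HCC range in TAE replicate 3. Stab1 was above every HCC library in every TAE library with either reference, by 1.07 on average with the 14 markers. F8 differed by -0.14 with the 14 markers and by 0.13 with Cdh5 alone, and Mrc1 by 0.30 and 0.57.

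**Figure D4:**
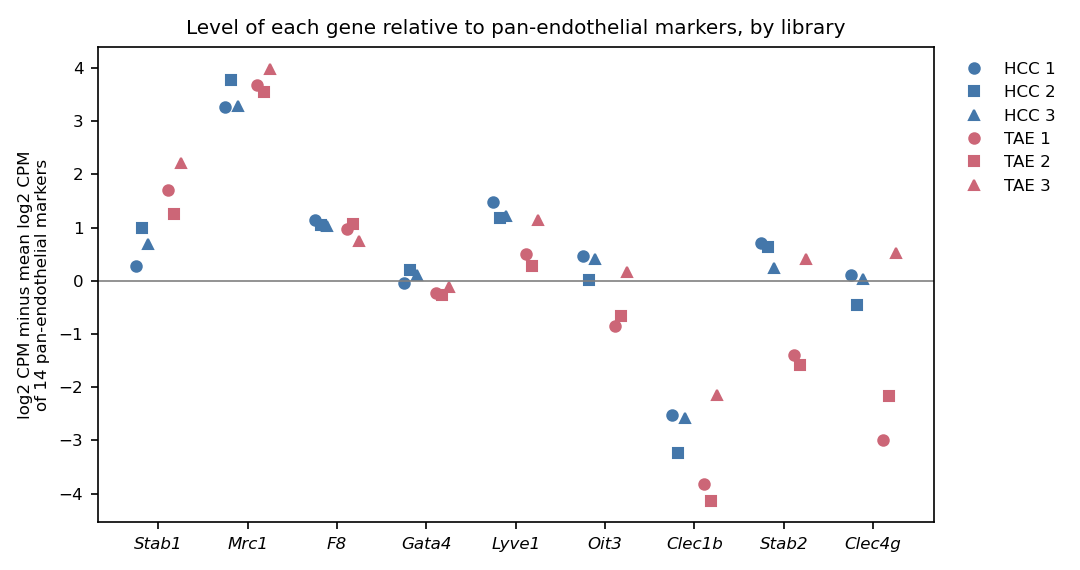
Level of each gene as log2 CPM minus the mean log2 CPM of 14 pan-endothelial markers of the same library (vertical axis), for HCC (blue) and TAE (red) with circles, squares and triangles for replicates 1, 2 and 3. Stab1 lies higher in each TAE library than in any HCC library, and Stab2 and Clec4g in TAE replicates 1 and 2 lie more than 1 unit below the HCC libraries.

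Other genes known from sinusoidal endothelium were read from the same fit. Of 14 tested, none passed in edgeR, 10 had positive and 4 negative log2 changes, and the median was 0.51, beside -0.03 over all tested genes. An unadjusted p was under 0.05 for 3 of the 14, and DESeq2 called 2 higher, shares near the 22.7% and 12.2% of all genes. In 3 of the 14, namely Maf, Plxnc1 and Rspo3, the FPKM of every TAE library was above that of every HCC library, again near the share of all genes (21.9%), and on log2 CPM Rspo3 overlapped. Maf, a transcription factor expressed in these cells and in macrophages, was 6.33 to 7.38 FPKM in HCC and 10.4 to 15.9 FPKM in TAE, with a log2 change of 0.91 ± 0.23 (edgeR adjusted p = 0.0766). Plxnc1, a semaphorin receptor, had a log2 change of 1.13 ± 0.26 (edgeR adjusted p = 0.0655), and Rspo3, a Wnt-enhancing ligand of central vein endothelium, one of 0.92 ± 0.43. Fcgr2b, the inhibitory IgG receptor through which these cells clear immune complexes, was 33.5 to 44.2 FPKM in HCC and 70.2, 43.6 and 69.1 FPKM in TAE replicates 1 to 3, with TAE replicate 2 inside the HCC range. Ehd3, an endocytic trafficking protein, and Kdr, the main VEGF receptor, had log2 changes of 0.55 and 0.48. Dnase1l3, a secreted nuclease, and Tfpi, the tissue factor pathway inhibitor, had log2 changes of -0.01 and -0.23.

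Genes of continuous endothelium and basement membrane, which capillarized sinusoids gain, included 1 that rose of 12 tested, and none fell, where 2.7% of all genes rose. In edgeR 9 of the 12 had an unadjusted p under 0.05, beside 22.7% of all genes. DESeq2 called 7 of them higher, beside 12.2% of all genes in either direction. Cd34, a sialomucin of continuous capillaries, was 2.96, 3.50 and 2.29 FPKM in HCC and 15.4, 9.03 and 7.58 FPKM in TAE, with a log2 change of 1.81 ± 0.30 (edgeR adjusted p = 0.0394). Every TAE library was above every HCC library, and the call was lost in edgeR without TAE replicate 1 or any 1 HCC library. The list median was 1.16, and 9 of the 12 had every TAE library above HCC in FPKM and 8 on log2 CPM, beside 21.9% and 18.6% of all genes. Among them were the basement membrane genes Col4a1 (log2 change 1.13 ± 0.32) and Nid1 (1.53 ± 0.36), which did not pass. These matrix genes are also expressed by stellate cells and fibroblasts. Of 7 lymphatic markers, which share Lyve1, Foxc2 rose from 0.0533 ± 0.0252 to 0.373 ± 0.0896 FPKM (edgeR adjusted p = 0.0424) and the other 6 did not pass. Foxc2 had 1 to 3 counts per library in HCC and 12 to 19 in TAE. Its call was lost in 8 of the 16 alternatives that gave an adjusted p, among them DESeq2 without HCC replicate 1 (adjusted p = 0.0851), HCC replicate 3 (0.123) or TAE replicate 1 (0.106). Prox1, the transcription factor of lymphatic identity that hepatocytes also express, was 8.18, 6.73 and 7.18 FPKM in HCC and 5.43, 2.95 and 6.02 FPKM in TAE. It lay wholly below HCC without passing (log2 change -0.63, edgeR adjusted p = 0.275). The summed FPKM of the 7 was 18.1 to 37.0 in HCC and 29.7 to 76.8 in TAE.

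Known ligands and partners of the 9 proteins were read from the same fit. None of 13 tested passed in edgeR, beside 3.01% of all tested genes, and the list median log2 change was 0.15. DESeq2 called 1 higher, beside 12.2% of all genes in either direction. An unadjusted p was under 0.05 in edgeR for 2, beside 22.7% of all genes. Cd44, the other main hyaluronan receptor, was 73.8 to 81.8 FPKM in HCC and 66.1 to 115 FPKM in TAE, with overlapping groups. Pdpn, which encodes podoplanin, the ligand of CLEC-2, was 3.08, 16.7 and 6.42 FPKM in HCC and 17.2, 16.6 and 19.5 FPKM in TAE, so that HCC replicate 2 stood with the TAE libraries. Vwf, the plasma carrier of factor VIII, had a log2 change of 0.26 ± 0.11 (edgeR adjusted p = 0.207). Lman1 and Mcfd2, which form the cargo receptor that carries factor VIII out of the endoplasmic reticulum, had log2 changes of -0.30 and -0.24, and Lrp1, a receptor that clears factor VIII, one of 0.38.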

How the data were processed

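RNA of 6 rat liver libraries (3 HCC, 3 TAE, grouped by title) was poly(A) selected and sequenced as strand-specific paired ends, per the labels' protocols. The authors deposited 1 table that gives each gene's raw count and FPKM in every library, per the file headers. The deposited FPKM equals the count scaled to exonic size and to the library's total count (100% of values within 0.006). The build is mRatBN7.2 per the submitters' processing notes. The last gene end on chromosome 1 of the table, 282724300, lies beyond that chromosome in mRatBN7.2, so coordinates are given as in the table with their build unsettled. The aligner, counting tool and strand setting were not given in the sources used here, so overlapping genes are uncertain.

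Counts were tested with edgeR 4.0.16 (R 4.3.3; TMM, filterByExpr, quasi-likelihood, two-sided, 14499 genes, Benjamini-Hochberg, threshold 0.05). The SE is the absolute log2 change divided by the square root of F. Log2 CPM used a prior count of 2. Alternatives used DESeq2 1.42.0 and limma 3.58.1, other scalings and filters, a replicate block and leaving out each library; DESeq2 without each library was added after seeing the data. On simulated counts for TAE against HCC (14365 genes), edgeR recovered 46.3% of 2-fold changes and 100% of 4-fold and 8-fold changes. It called 0.0706% of unchanged genes. These shares hold for the simulated counts only and do not give the power for the members. In the deposited counts Stab1, with a log2 change of 1.95, missed the threshold (edgeR adjusted p = 0.0516). The members and 10 other lists were chosen with earlier results of these data known, and 4 of 117 entries, Fcn3, Pecam1, Hspg2 and Timd4, had no match. Genes named from a list were those that passed or, if none did, the 4 tested with the highest mean FPKM, with the 3 nearest genes by profile for Stab2, Clec4g and Mrc1. Clec4f, Cd163, Cd5l, Prox1, Kdr, Maf, Plxnc1, Rspo3, Pdpn, Vwf, Col4a1, Nid1, Tie1, Itga2b and the 3 nearest genes of Stab1 were named, and sums without Lyz2 or Pf4 taken, after values were seen. One gene that this rule names is not reported here. Replicate numbers were not taken as pairing the libraries, which the values here cannot decide.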

Additional observations from a re-analysis of the deposited data

How the results depend on the processing

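The count of the 9 members that passed was 0 in edgeR with all libraries, with median-of-ratios factors and at a mean count of at least 50. It was 1 (Stab1) with library totals only, without a filter, and with limma on log2(FPKM + 1) and log2(FPKM + 0.1). It was 2 with DESeq2 and 5 with limma voom and sample quality weights (Stab1, Mrc1, F8 and Gata4 higher and Clec4g lower). These settings called 1036, 829, 701, 709, 1763 and 5975 of all genes, in the order named, against 437. Leaving out 1 library gave 0 to 4 members (in edgeR 4 when TAE replicate 2 was left out, 2 for TAE replicate 3 and 0 for each of the others, and 1, 2, 1, 1, 4 and 4 in DESeq2 without HCC replicates 1 to 3 and TAE replicates 1 to 3). Of all genes it gave 0 to 4234, with 0, 1, 0, 1, 3569 and 1226 in edgeR in that order and 890, 1043, 709, 767, 4234 and 2130 in DESeq2. In the edgeR fits without HCC replicates 1 and 3, 2210 and 1997 genes had an unadjusted p under 0.05.

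The replicate block gave 0 members and 0 of all genes (2984 with an unadjusted p under 0.05). Same-numbered libraries deviated from their group means with correlations of 0.10, -0.21 and 0.03, and no library pair was taken as matched. With 3 libraries per group these correlations cannot decide whether the libraries were matched. Under the block the log2 change turned to -0.73 for Clec4g and -0.0011 for Oit3.

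Clec4g was also negative with limma on log2(FPKM + 1) and log2(FPKM + 0.1) (-0.56 and -0.66) and with voom weights (-1.49). In edgeR, leaving out 1 library spanned -1.87 to 0.65 for Clec4g, -1.28 to 0.18 for Stab2, -0.13 to 0.54 for Lyve1, -0.35 to 0.42 for Oit3 and -0.50 to 0.98 for Clec1b. It spanned -0.37 to 0.23 for Dnase1l3, -0.89 to 0.10 for Tf, -1.68 to 0.39 for Marco, -0.98 to 0.31 for Itga2b, -0.46 to 0.15 for Cd163 and -1.11 to 0.26 for Cd5l. Dnase1l3 was 0.0068 with library totals only and 0.0014 at a mean count of at least 50. With Cdh5 alone as reference, the difference from endothelial markers was 0.57 for Mrc1, 0.13 for F8 and -0.027 for Gata4. The cause of these changes was not tested. In DESeq2, a choice made after seeing the data, leaving out TAE replicate 3 gave -0.15 for Lyve1, -1.89 for Clec4g, -0.38 for Oit3 and -0.51 for Clec1b, and called Stab2 and Clec4g lower. Leaving out HCC replicate 2 gave -0.013 for Oit3 and 0.070 for Cd163, and leaving out HCC replicate 1 gave 0.24 for Dnase1l3, 0.17 for Marco, 0.12 for Itga2b and 0.13 for Cd5l. Without TAE replicate 1 Marco was 0.36, Itga2b 0.22 and Cd5l 0.12, and without TAE replicate 2 Dnase1l3 was 0.055, Cd163 0.15 and Cd5l 0.26. Over 53 named genes and 1107 gene and setting combinations with an adjusted p, 860 kept direction and side of the threshold, 39 lost the call, 159 gained it and 49 turned. Clec1b had 14 to 82 counts per library, which limits its precision.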
